A study of Rattus norvegicus with 150 samples.

Results

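Myog, Myod1 and Pax7 are 3 of the 32545 genes in a table of RNA-seq read counts from rat gastrocnemius muscle that carried metal implants. They were taken by their Ensembl identifiers, ENSRNOG00000030743 for Myog, ENSRNOG00000011306 for Myod1 and ENSRNOG00000018739 for Pax7, without use of their measured values. Pax7 is the paired-box transcription factor that marks satellite cells, the resident stem cells of skeletal muscle. Myod1 (MyoD) is a basic helix-loop-helix factor that commits activated satellite cells to the muscle lineage, and Myog (myogenin), of the same family, drives their differentiation and fusion into fibres. Regenerating fibres express Myog and Myod1, and pathologists stain for both proteins to recognise rhabdomyosarcoma, a tumour with skeletal muscle features.

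The implanted groups carried nickel (Ni), cobalt (Co), a metal labelled P or depleted uranium (DU), and the sham group carried tantalum (Ta), implanted by the same surgery, so that every group carried an implant. The label P is taken here to be lead, the one metal with that initial in the submitters' design text, and is kept as written. All animals were male Sprague-Dawley rats, about 30 days old when purchased and kept for at least 2 weeks before the experiments, with 2 pellets in each limb and 4 in each rat. Muscle was taken 1, 3, 6 or 12 months after implantation, each time being a separate cohort, and Ni libraries at 1, 3 and 6 months were used here. The 150 libraries fall into 19 groups, 17 of 8 libraries and 2 of 7 (Ta at 1 month and Co at 6 months). The submitters' texts plan 8 rats per group, but no label ties a library to a rat. Libraries were treated as the replicates, so p-values rest on the spread between libraries. Every metal at a given time was set against the same Ta libraries.

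Libraries held 12674115 to 21921859 counts, with a median of 15778710. Library 2 of DU at 3 months stood apart: its median correlation with the other libraries of its group was 0.415, against a median of 0.961 over all libraries, and 13.7% of genes were at least 4-fold above the group median. It held 0 counts of Myog, of Myod1 and of Pax7. A floor of 3 counts stood at 0.247 CPM (counts scaled to the size of the library) there. The exact binomial 95% interval of its 0 count of Myog reached 0.304 CPM. Libraries 5 and 6 of DU at 12 months correlated with their group at 0.905 and 0.79, and library 1 of Co at 6 months at 0.842. No gene other than these 3 could be paired with a name, so the tissue and other cell types were not checked against marker genes. In whole muscle, fewer cells of a type and less RNA per cell cannot be told apart.

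The stretch of 250 bases before the start of Myog is shown because factors of the MyoD family are known to act through E-boxes in the myogenin promoter. It lies at chr13:48297226-48297475 on the plus strand of GRCr8 (RefSeq), a build other than the Rnor_6.0 of the counts, and the capitals mark E-boxes, CANNTG on either strand.
Myog promoter: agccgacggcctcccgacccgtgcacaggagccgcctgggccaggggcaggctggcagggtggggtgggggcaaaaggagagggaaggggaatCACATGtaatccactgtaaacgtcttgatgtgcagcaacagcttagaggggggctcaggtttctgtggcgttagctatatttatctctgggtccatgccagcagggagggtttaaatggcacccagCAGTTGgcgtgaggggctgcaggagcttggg
The letters hold 2 matches, CACATG from 157 bases before the start and CAGTTG from 31 bases before it. At least 1 match stood in 65.5% of 33469 promoter windows of the same length and at least 2 stood in 30.8%, so the motif alone does not set Myog apart.

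Myog and Myod1 were detected in 149 of 150 libraries, and Pax7 in 147. The median library held 353 counts of Myog, 572 of Myod1 and 10 of Pax7. Pax7 had fewer than 10 counts in 73 libraries and never more than 34. Counting error alone accounted for a coefficient of variation with a median over the groups of 4.99% for Myog, 3.83% for Myod1 and 32.2% for Pax7. The measured variation between libraries had medians over the groups of 37.2%, 45.3% and 60.2%, each median taken separately. Counting error was thus small beside the spread between libraries for Myog and Myod1, and a larger part of it for Pax7.

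Myog, the differentiation factor, was near 20 to 30 CPM in most groups and far higher in DU muscle at 12 months. In DU muscle it averaged 29.6 ± 17.0 CPM at 1 month, 16.3 ± 8.11 at 3, 21.7 ± 4.39 at 6 and 138 ± 213 at 12 months (SD, n = 8 each). In Co muscle the averages were 25.97 ± 11.2, 23.8 ± 13.5, 27.4 ± 8.64 and 41.7 ± 27.6 CPM at 1, 3, 6 and 12 months (SD, n = 7 at 6 months and 8 otherwise). Co at 12 months was second in the order of the 19 group means, below DU at 12 months. In P muscle Myog averaged 25.5 ± 7.33, 22.5 ± 6.51, 20.4 ± 4.82 and 23.6 ± 8.49 CPM at these times, and in Ni muscle 28.5 ± 13.03, 32.9 ± 18.9 and 20.3 ± 3.56 CPM at 1, 3 and 6 months (SD, n = 8 each). In Ta muscle the averages were 22.8 ± 8.49, 25.4 ± 11.2, 21.99 ± 6.90 and 24.6 ± 4.86 CPM at 1, 3, 6 and 12 months (SD, n = 7 at 1 month and 8 otherwise). DU at 3 months was lowest, and averaged 18.6 ± 5.13 CPM without library 2 (SD, n = 7).

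Myod1, the commitment factor, was highest in Ni muscle at 3 months and lowest in P muscle at 12 months. In Ni muscle it averaged 27.8 ± 14.003, 59.0 ± 14.1 and 45.5 ± 14.4 CPM at 1, 3 and 6 months (SD, n = 8 each). In P muscle the averages were 46.4 ± 24.7, 48.1 ± 21.2, 29.7 ± 9.81 and 22.1 ± 10.03 CPM at 1, 3, 6 and 12 months (SD, n = 8 each). P thus had its lowest Myod1 mean at the latest time. In Co muscle Myod1 averaged 35.6 ± 20.1, 35.2 ± 14.96, 22.9 ± 11.9 and 32.8 ± 10.7 CPM at 1, 3, 6 and 12 months (SD, n = 7 at 6 months and 8 otherwise). In DU muscle the averages were 50.6 ± 22.2, 42.9 ± 22.4, 33.9 ± 21.5 and 51.7 ± 58.2 CPM (SD, n = 8 each), and in Ta muscle 41.4 ± 11.9, 54.0 ± 26.9, 35.6 ± 16.7 and 46.1 ± 16.2 CPM at the same times (SD, n = 7 at 1 month and 8 otherwise). The Co mean at 6 months was 26.1 ± 9.21 CPM without library 1, which held 3.86 CPM (SD, n = 6), and the DU mean at 3 months was 49.0 ± 15.3 CPM without library 2 (SD, n = 7).

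Pax7, the satellite cell factor, stayed below 1 CPM on average in every group. Its means ran from 0.256 ± 0.232 CPM in Co at 3 months to 0.918 ± 0.555 CPM in P at 1 month (SD, n = 8 each). In Ni muscle they were 0.783 ± 0.381, 0.542 ± 0.382 and 0.757 ± 0.249 CPM at 1, 3 and 6 months, and in P muscle at 3, 6 and 12 months 0.542 ± 0.335, 0.696 ± 0.252 and 0.863 ± 0.342 CPM (SD, n = 8 each). P therefore held the highest and second-highest Pax7 means, at 1 and 12 months. In Co muscle at 1, 6 and 12 months they were 0.536 ± 0.386, 0.526 ± 0.295 and 0.591 ± 0.316 CPM (SD, n = 7 at 6 months and 8 otherwise). In DU muscle at 1, 3, 6 and 12 months they were 0.760 ± 0.309, 0.753 ± 0.590, 0.649 ± 0.221 and 0.498 ± 0.300 CPM (SD, n = 8 each), and in Ta muscle 0.726 ± 0.393, 0.600 ± 0.411, 0.602 ± 0.371 and 0.574 ± 0.395 CPM (SD, n = 7 at 1 month and 8 otherwise). In the order of the 19 group means, none of the 18 gaps between neighbours exceeded the larger SD of the pair, for any of the 3 genes. Neighbours in a sorted order lie close by construction, so this does not tell whether groups further apart differ.

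**Figure D1:**
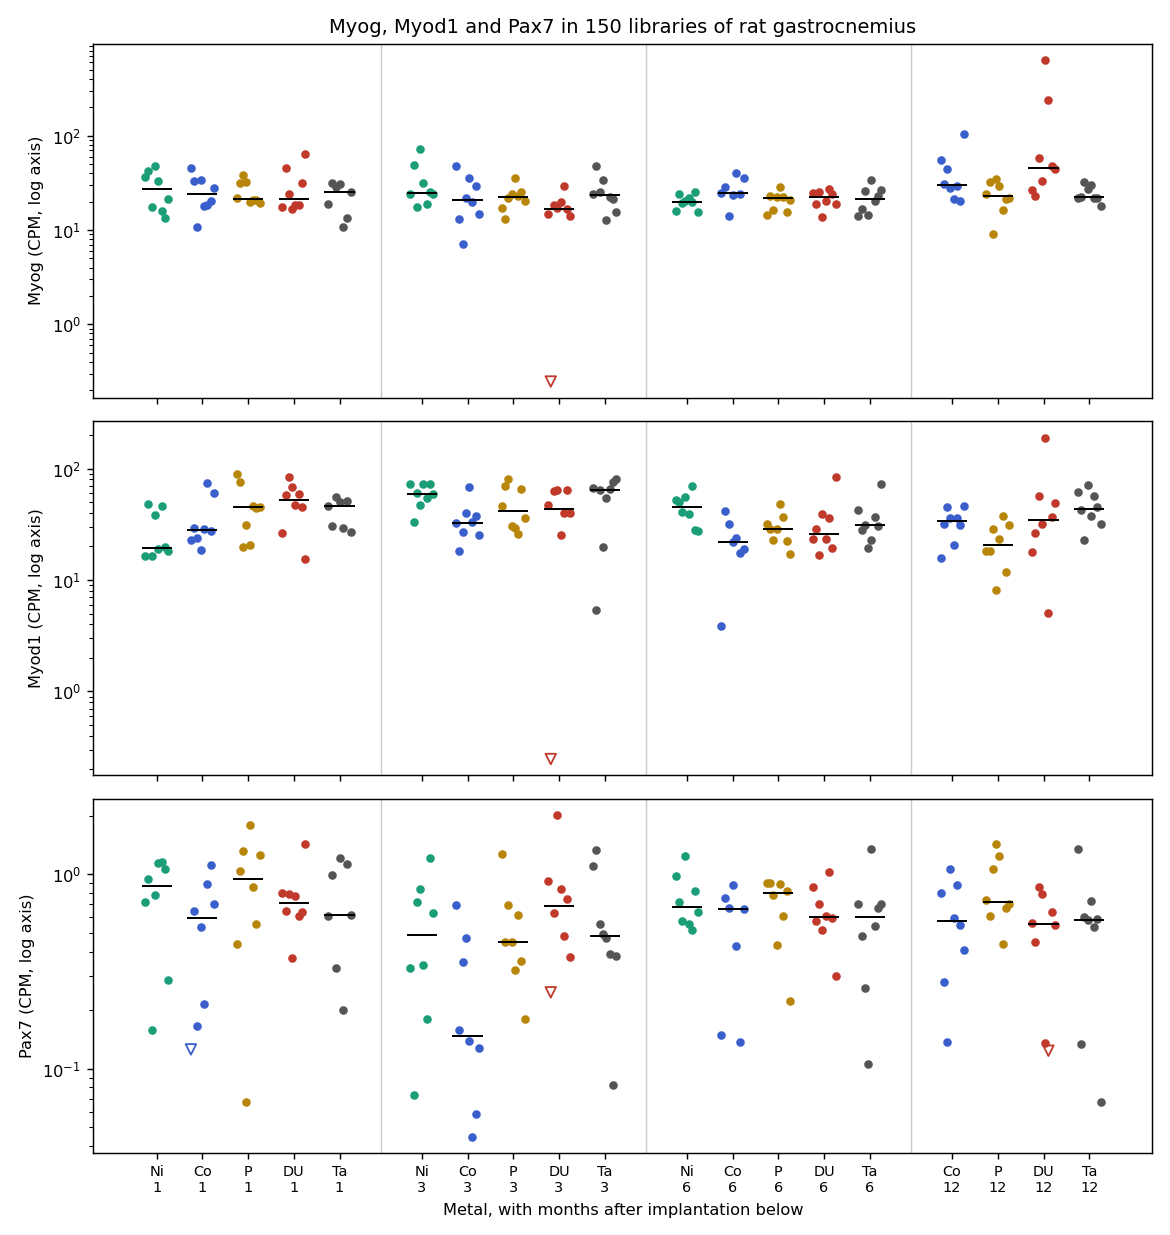
CPM (log axes) of Myog, Myod1 and Pax7 in each library, 1 point per library, grouped by months after implantation and metal, with a black line at each group's median; open triangles are libraries with 0 counts, drawn at their floor of 3 counts. Libraries 5 and 6 of DU at 12 months stand at 636 and 238 CPM of Myog, and library 2 of DU at 3 months holds none of the 3 genes.

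None of the 3 genes passed the test between a metal and Ta of the same time in any of 15 comparisons (edgeR's quasi-likelihood test, Benjamini-Hochberg adjusted over all genes tested, threshold 0.05). The lowest adjusted p was 0.164 for Myog, 0.0728 for Myod1 and 0.464 for Pax7. Unadjusted values under 0.05 were 2, 1 and 0. Among all genes tested, such values ran from 328 of 12034 for Ni at 6 months to 3223 of 12158 for DU at 3 months. Pax7 passed the filter on low counts in 8 of the 15 comparisons. The share of all tested genes called was 6.44% for Co against Ta at 3 months, 2.38% for P at 12 months and 0.338% for P at 3 months. It was 0.0083% for Co and 0.00826% for DU at 12 months, 1 gene in each, and 0% in the other 10 comparisons. Calls were thus rare among all genes in most of these fits. The 0% for DU at 3 months was with library 2, which stood apart. Without that library, edgeR called 260 genes higher and 484 lower of 12291 tested. The log2 fold changes over Ta had a median of 0.15 for Myog (-0.66 to 2.48), -0.22 for Myod1 (-1.06 to 0.33) and 0.10 for Pax7 where tested (-0.47 to 0.58). An exact two-sided permutation test of each gene's log2 CPM gave an unadjusted p under 0.05 in 4 of 45 tests. These were 1 for Myog, 2 for Myod1 and 1 for Pax7. The permutation test was not run on other genes, so no share of all genes stands beside that count.

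**Figure D2:**
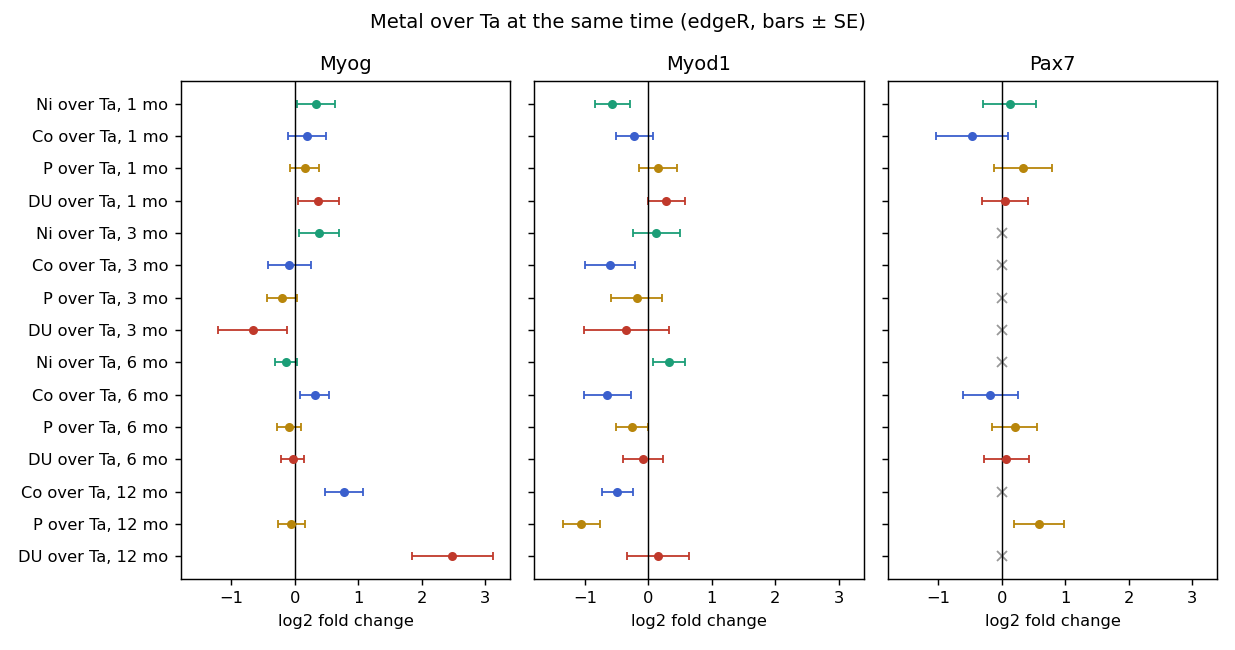
Log2 fold change of each gene in each metal over Ta at the same time, with bars of ± 1 SE (edgeR); grey crosses mark comparisons in which Pax7 was removed by the filter on low counts. DU over Ta at 12 months stands out for Myog at 2.48 ± 0.64, and P over Ta at 12 months for Myod1 at -1.06 ± 0.29; neither passed the adjusted threshold.

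The widest difference was that of Myog in DU muscle at 12 months. The 8 DU libraries held 26.3, 23.1, 58.5, 33.3, 636, 238, 47.7 and 44.4 CPM of Myog, against a lowest of 18.1, a median of 22.2 and a highest of 32.4 CPM in Ta. All 8 DU libraries lay above the Ta median and 6 lay above every Ta library, while 2 overlapped with Ta. The log2 fold change was 2.48 ± 0.64 (SE) with an unadjusted p of 0.00111 and an adjusted p of 0.164 (edgeR), and the exact permutation p was 0.00497. A p as low was reached by 0.66% of the genes tested. Library 5, with 14127 reads of Myog (95% exact binomial interval 626 to 647 CPM), was 16.4-fold and library 6 6.12-fold above the median of the other 6. Without these 2 libraries DU averaged 38.9 ± 13.6 CPM (SD, n = 6), 4 of the 6 lay above every Ta library, and the log2 fold change was 0.68 ± 0.19 (adjusted p = 0.0992, edgeR). The size of the difference therefore rested on 2 libraries. It passed the threshold in 1 of the alternatives tried, the fit of all 150 libraries in 1 model (2.50 ± 0.40, adjusted p = 2.26e-06), in which the groups share 1 estimate of the spread and 5.06% of all genes were called.

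Myod1 was high with Myog in library 5 and low in library 6, and Pax7 was low in both. Library 5 held 190 CPM of Myod1 and library 6 held 5.07 CPM, against a median of 34.3 CPM in the other 6, so one was the highest and the other the lowest of the group. Over all 8, Myod1 had a lowest of 5.07, a median of 34.3 and a highest of 190 CPM in DU, against 22.7, 43.7 and 71.1 CPM in Ta, and the log2 fold change was 0.16 ± 0.49 (adjusted p = 0.893, edgeR), and -0.32 ± 0.28 without libraries 5 and 6 (adjusted p = 0.605). Pax7 was at 3 counts in library 5 (0.135 CPM) and at 0 in library 6 (floor of 3 counts at 0.124 CPM), with 0.446 to 0.865 CPM in the other 6. These 2 libraries also had TMM factors of 1.48 and 1.56, and 1.04% and 5.25% of genes in them were at least 4-fold above the group median. The part of these shifts in the Myog values was not tested.

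**Figure D3:**
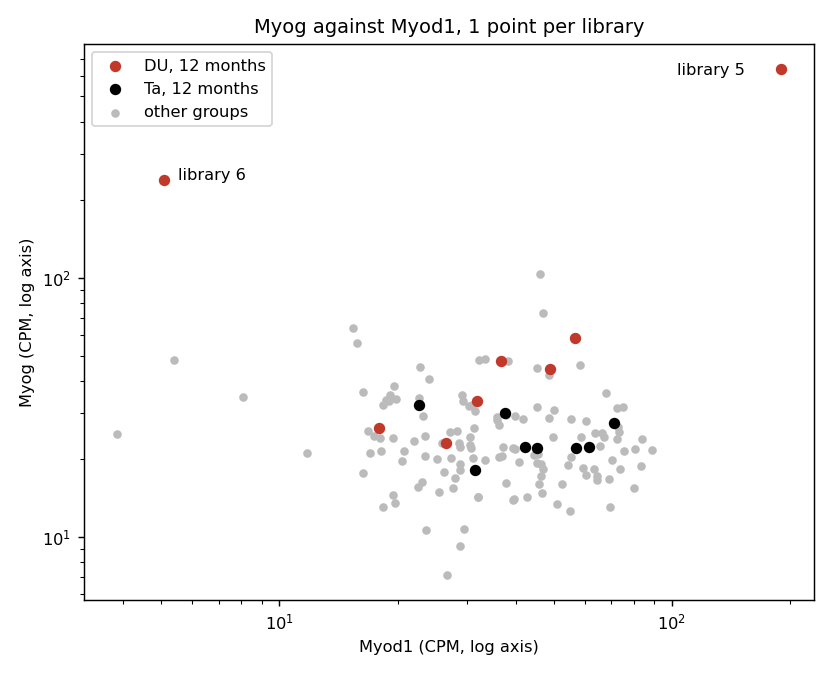
Myog against Myod1 in CPM (log axes), 1 point per library, with DU at 12 months in red, Ta at 12 months in black and the other groups in grey; the library with 0 counts of both is left out. Libraries 5 and 6 of DU are the 2 highest in Myog and lie far apart in Myod1, at 190 and 5.07 CPM.

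The difference of Myog between times within DU was of like size. At 1, 3, 6 and 12 months the median library held 21.2, 16.9, 22.3 and 46.1 CPM. The log2 fold change of 12 over 1 months was 2.22 ± 0.67 (adjusted p = 0.11, edgeR), in a comparison that called 1.37% of all genes; it passed in the fit of all 150 libraries (7.99% called) and was 0.40 ± 0.33 without libraries 5 and 6 (adjusted p = 0.556). The direct test of whether the DU effect differed between 12 and 1 months, a contrast added after the values were seen, gave 2.11 ± 0.74 (adjusted p = 0.247) with 0.00769% of all genes called, passed in the fit of all 150 libraries (1.44% called) and was 0.28 ± 0.41 without libraries 5 and 6.

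Myog in Co muscle at 12 months lay on the same side. Its lowest, median and highest libraries held 20.2, 29.8 and 103 CPM in Co, against 18.1, 22.2 and 32.4 CPM in Ta. Library 8 was the highest, library 1 was next at 55.9 CPM, and 3 of 8 lay above every Ta library. The log2 fold change was 0.77 ± 0.30 (adjusted p = 0.296, edgeR) and the exact permutation p was 0.0678. Without library 8 it was 0.42 ± 0.20 (adjusted p = 0.408), and Co averaged 32.9 ± 12.96 CPM (SD, n = 7). In library 8, 2.81% of genes were at least 4-fold above the group median.

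Myod1 was lower in P muscle at 12 months by a difference that did not pass the threshold. The lowest, median and highest libraries held 8.08, 20.8 and 37.8 CPM in P, against 22.7, 43.7 and 71.1 CPM in Ta. All 8 P libraries were below the Ta median and 4 were below every Ta library. The log2 fold change was -1.06 ± 0.29 (unadjusted p = 0.00241, adjusted p = 0.0728, edgeR), with an exact permutation p of 0.00373. It passed with DESeq2 (adjusted p = 0.00757, 4.46% of all genes called) and with limma's voom and sample quality weights (adjusted p = 0.0155, 5.9% called). It also passed with edgeR when library 6 of P was left out (adjusted p = 0.0434, 1.93% called), and not in the other settings. There edgeR gave adjusted p-values of 0.287 for all 150 libraries in 1 model, 0.284 with the replicate block and 0.134 without the filter. They were 0.0729 with RLE size factors and 0.0735 with library totals in place of TMM. Leaving out other single libraries gave 0.0528 to 0.14. In the same libraries Myog was at 23.6 ± 8.49 CPM in P and 24.6 ± 4.86 CPM in Ta (SD, n = 8 each; log2 fold change -0.06 ± 0.21, adjusted p = 0.917). Pax7 was at 0.863 ± 0.342 CPM in P and 0.574 ± 0.395 CPM in Ta (SD, n = 8 each; log2 fold change 0.58 ± 0.40, adjusted p = 0.464).

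**Figure D4:**
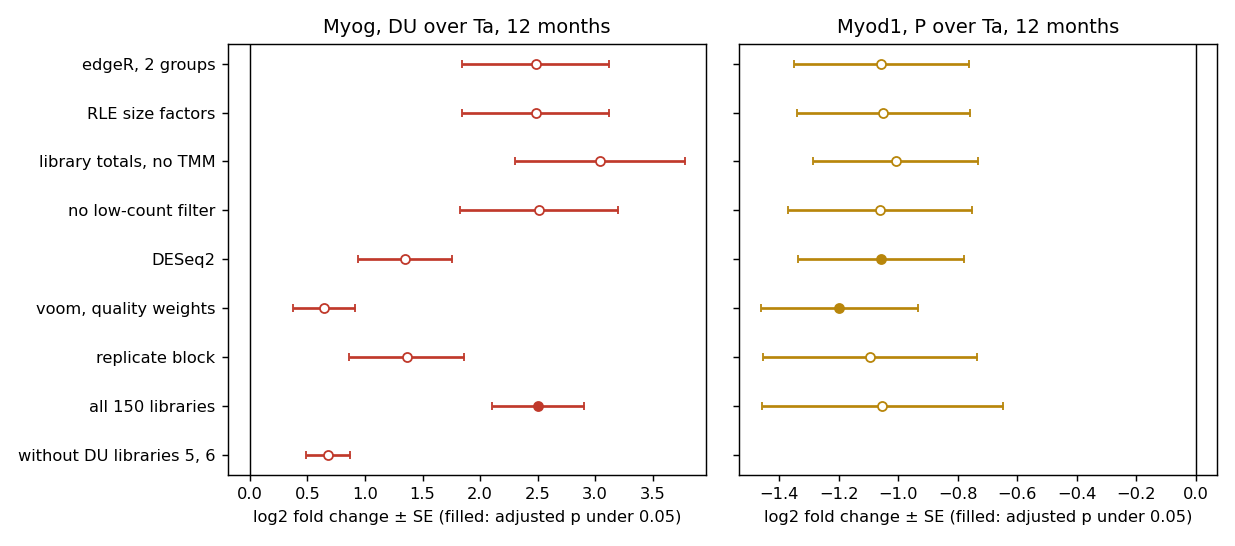
Log2 fold change ± SE of Myog in DU over Ta at 12 months (left) and of Myod1 in P over Ta at 12 months (right) under each setting, with filled points where the adjusted p was under 0.05. The Myog value runs from 0.65 to 3.04, and the Myod1 value from -1.20 to -1.01.

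Myod1 averaged less in Ni at 1 month and in Co at all 4 times than in Ta, each short of the threshold. This was not particular to them. The log2 fold change of Myod1 over Ta was below 0 in 10 of the 15 comparisons, also in P at 3, 6 and 12 months and in DU at 3 and 6 months. At 1 month the lowest, median and highest libraries held 16.3, 19.3 and 48.6 CPM in Ni, against 27.2, 46.3 and 55.4 CPM in Ta. In Ni 5 of 8 libraries were below every Ta library (log2 fold change -0.57 ± 0.28, adjusted p = 0.411, edgeR; exact permutation p = 0.0476). In Co the log2 fold change of Myod1 over Ta was -0.22 ± 0.29 at 1 month, -0.60 ± 0.40 at 3, -0.65 ± 0.37 at 6 and -0.49 ± 0.24 at 12 months, with adjusted p-values from 0.356 to 0.859. All 4 were below 0, also without TMM, and none passed; at 6 months the value was -0.46 ± 0.28 without library 1. In DU at 3 months Myog was at -0.66 ± 0.55 over Ta (adjusted p = 0.45), and at -0.47 ± 0.25 without library 2 (adjusted p = 0.198), while Myod1 was at -0.35 ± 0.67 with and -0.15 ± 0.40 without that library. For Pax7 in Co at 3 months, which the filter removed, the exact permutation p was 0.0466; its lowest, median and highest libraries held 0.0447, 0.148 and 0.698 CPM in Co, or 1 to 11 reads, against 0.0820, 0.481 and 1.34 CPM in Ta.

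In edgeR's fit of the 2 groups, Co muscle at 3 months called more genes against Ta than the other 14 comparisons did. That order was not kept with voom, where Co called 3 genes higher and 0 lower than Ta at 3 months. With voom at this time P called 2009 higher and 1961 lower, and DU 2391 higher and 2273 lower. Co muscle at 3 months was also set against the other metals, and Myod1 was called against Ni alone. The lowest, median and highest libraries held 18.3, 32.8 and 68.0 CPM of Myod1 in Co, against 33.4, 59.6 and 73.4 CPM in Ni. In Co 5 of 8 libraries were below every Ni library. Myod1 fell by 0.70 ± 0.22 on the log2 scale (adjusted p = 0.0485, edgeR), in a comparison that called 12.2% of all genes, and 11.8% of genes had a p as low. The call held with DESeq2 (adjusted p = 0.0231; 18% of all genes called) and without the filter (adjusted p = 0.0474; 10.1% called). It was lost with RLE size factors (adjusted p = 0.0525), library totals in place of TMM (-0.36 ± 0.18, adjusted p = 0.131), voom (0.0555), the replicate block (0.15) and all 150 libraries in 1 model (0.169). Leaving out single libraries gave adjusted p-values from 0.0048 to 0.107, and it held in 3 of 16 such fits, those without library 2 of Ni and without library 4 or library 5 of Co. The log2 fold change of Myod1 in Co was -0.42 ± 0.28 over P (adjusted p = 0.245, 29.1% of all genes called). Over DU it was -0.23 ± 0.61 (adjusted p = 0.817, 17.5% called), or -0.43 ± 0.25 without library 2 of DU (adjusted p = 0.186). Without that library, 2824 genes were called higher in Co than in DU and 1680 lower, of 12647 tested. Myog did not pass in any of these 3 comparisons, at -0.44 ± 0.37 over Ni, 0.11 ± 0.30 over P and 0.60 ± 0.59 over DU (0.40 ± 0.31 without library 2 of DU). Pax7 was removed by the filter in all 3. Exact permutation tests of Pax7 in Co gave unadjusted p-values of 0.0345 against P, 0.0547 against DU and 0.094 against Ni. In Co 5 of 8 libraries were below every P library, 2 below every Ni library and 0 below every DU library. Counts of Pax7 were 1 to 11 in Co and 0 to 34 in DU. The fit of all 150 libraries called 44.4% of all genes for Co over DU. There the log2 fold change of Pax7 was -1.56 ± 0.50 (adjusted p = 0.00776, edgeR). It did not pass without the filter (-1.62 ± 0.68, adjusted p = 0.109) or with DESeq2 (-1.59 ± 0.64, adjusted p = 0.0505).

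Between times within a metal, none of the 3 genes was called in 14 comparisons, although many other genes were; Pax7 passed the filter in 3 of them. The share of all genes called was 23.6% for 6 against 3 months and 17.7% for 12 against 1 months in Ta, 25.4% for 6 against 3 months in Ni, and 28.4% and 18.4% for 6 against 3 and 12 against 1 months in Co. In P it was 2.08% for 3 against 1, 0.0412% for 6 against 3 and 11.4% for 12 against 1 months. It was 0.00813% for 3 against 1 months in Ta, 0.00814% for 3 against 1 and 0.0325% for 6 against 3 months in DU, and 0% for 3 against 1 months in Ni and in Co. Myod1 in Ni had the lowest unadjusted p of these: its lowest, median and highest libraries held 33.4, 59.6 and 73.4 CPM at 3 months, against 16.3, 19.3 and 48.6 CPM at 1 month (log2 fold change 1.08 ± 0.26, unadjusted p = 0.000694, adjusted p = 0.113, edgeR). It passed with DESeq2 (adjusted p = 0.00759; 3.02% of all genes called). Myod1 in P at 12 over 1 months was at -1.05 ± 0.35 (adjusted p = 0.0644), and passed with DESeq2 (adjusted p = 0.0137; 13.5% called) and voom (adjusted p = 0.0261; 16.9% called). Myog in Ni at 6 over 3 months was at -0.73 ± 0.27 (adjusted p = 0.0531), and passed with DESeq2 (adjusted p = 0.0281; 26.3% called). In Ta, the log2 fold changes of 12 over 1 months were 0.11 ± 0.21 for Myog and 0.16 ± 0.23 for Myod1.

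The effect of a metal over Ta was also compared directly between 3 months and 1 or 6 months. None of the 3 genes passed in these 8 tests, with adjusted p-values from 0.435 to 0.999 (edgeR). The share of all genes called was 10.6% for DU at 3 minus 6 months, 3.41% for Co at 3 minus 6 months, 0.0688% for DU at 3 minus 1 months and 0% in the other 5. The most negative value was that of Pax7 for Co at 3 minus 6 months, -1.08 ± 0.72. The next was that of Myog for DU at 3 minus 1 months, -1.03 ± 0.65, or -0.84 ± 0.42 without the library with 0 counts. Without that library, this contrast called 0 genes higher and 0 lower of 12983 tested.

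The levels of Myog and Myod1 showed little rank correlation across libraries. Over 150 libraries, which share groups and sequencing, the Spearman correlation of their log2 CPM was -0.09 and the Pearson correlation 0.37. Without library 2 of DU at 3 months and libraries 5 and 6 of DU at 12 months both were near -0.1, at -0.12 and -0.11 (n = 147). Among 12254 genes with a mean of at least 1 CPM, those whose log2 CPM was most like Myog by Spearman correlation over the 150 libraries were ENSRNOG00000019527 (Spearman 0.65, Pearson 0.74) and ENSRNOG00000018262 (Spearman 0.64, Pearson 0.67), for which no name was at hand. Libraries 5 and 6 of DU at 12 months held 209 and 371 CPM of ENSRNOG00000019527, against a median of 11.8 CPM in the other 6, and 175 and 771 CPM of ENSRNOG00000018262, against 18.5 CPM. These libraries were among the 150 by which the genes were chosen, so the values are no separate evidence; the fourth gene in the order was at 44.1 and 17.7 CPM in them, against 10.2 CPM. The gene most like Myod1 by Spearman correlation was ENSRNOG00000008961 (Spearman 0.73, Pearson 0.82), at 238 and 35.6 CPM in libraries 5 and 6 and at a median of 89.7 CPM in the other 6.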

How the data were processed

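Total RNA of gastrocnemius muscle was read as stranded paired reads of 100 bases, per the labels' protocols. The submitters' processing notes name HISAT2 2.0.5, featureCounts 1.5.0-p3 and Rnor_6.0; the strand setting and annotation release are not given in the sources used here. Genes that overlap could therefore share reads. The authors deposited raw read counts, which they had not normalized. Columns were assigned by the library names in the labels.

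Each comparison was fitted on its own groups with edgeR 4.0.16 (filterByExpr with a minimum count of 10, TMM, robust glmQLFit and glmQLFTest; R 4.3.3), and adjusted over all genes tested. The SE is the log2 fold change over the square root of F. For CPM, TMM factors came from all 150 libraries together; a prior count of 2 was added for log2 CPM. Exact permutation tests used scipy 1.17.1 and are unadjusted. Intervals and floors cover counting error only. DESeq2 1.42.0, limma 3.58.1 and the other alternatives are in the closing section. The edgeR script was tested on simulated data.

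The members and lists were chosen with earlier results of these data known. The naming rule took the 3 genes, called genes of related lists, and the genes most like each member; as 0 identifiers matched a name, the lists were not tested, and at most 2 like genes are given by identifier. Those of Pax7 are left out because of its low counts. Replicate numbers met the rule for pairing only for Co and Ta at 3 months, where 8 of 8 same-numbered pairs deviated together (correlations 0.109 to 0.426). The labels do not say what a number marks. The edgeR and permutation values given for Co against Ta at 3 months do not use this pairing. With the replicate block, edgeR called 1 gene higher and 0 lower there, against 767 higher and 34 lower of 12429 without the block. No 2 libraries of a group agreed within sampling noise (lowest chi-square per degree of freedom 11.5 over 518 pairs).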

Additional observations from a re-analysis of the deposited data

Results flagged for a closer look

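In 9 of 57 sets, each 1 gene in 1 of the 19 groups, 1 library stood far from the rest in CPM by Dixon's criterion at 95%. The 3 genes share the same libraries, so these sets are not independent. For normally distributed values, chance flags about 1 in 20 sets. The CPM were not log-transformed and each flagged library was the highest of its group, so that rate need not hold here. For Myog these were library 5 of DU at 12 months, at 636 CPM with the next at 238, and library 8 of Co at 12 months, at 103 CPM with the next at 55.9. For Myod1 they were library 5 of DU at 12 months at 190 CPM, library 8 of DU at 6 months at 83.4 CPM, library 5 of Co at 3 months at 68.0 CPM and library 8 of Ta at 6 months at 72.7 CPM. For Pax7 they were library 4 of DU at 3 months at 2.02 CPM, library 8 of DU at 1 month at 1.44 CPM and library 1 of P at 3 months at 1.27 CPM. Library 5 of DU at 12 months is the one that stood apart in 2 of the 3 genes.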

How the results depend on the processing

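No log2 fold change that passed the threshold changed sign in any setting. Where edgeR called 0 of the 3 genes, 1 was called for P against Ta at 12 months and P at 12 against 1 months (DESeq2 and voom), for Ni at 3 against 1 and 6 against 3 months (DESeq2), and for DU against Ta at 12 months, DU at 12 against 1 months, the DU effect at 12 minus 1 months (Myog, 2.14, adjusted p = 0.0194) and Co against DU at 3 months (all 150 libraries in 1 model). These fits also called 1.44% to 44.4% of all genes. The 1 call of Co against Ni at 3 months became 0 with RLE size factors (adjusted p = 0.0525), library totals (0.131), voom (0.0555), the replicate block (-0.74, adjusted p = 0.15) and all 150 libraries in 1 model (0.169). Leaving out 1 library gave 0 to 1 calls there and for P against Ta at 12 months. With the replicate block, Myog in DU over Ta at 12 months was 1.36 ± 0.50 (adjusted p = 0.515) and Myod1 in P was -1.10 ± 0.36 (adjusted p = 0.284); it changed no other call. Leaving out 1 library gave 1.47 to 2.64 for this Myog value. DESeq2 gave it as 1.35 with an outlying count replaced, and voom as 0.65. Without TMM it was 3.04, where the median of all genes was 0.32, or 2.72 relative to that median; for Myod1 in Co over Ni it was -0.36, where the median was 0.41, or -0.78 relative to it. The causes of these changes were not tested. Settings without libraries that stand apart were chosen after seeing the data. Pax7, at a median of 10 counts, allows little precision.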
